A study of Mus musculus with 27 samples.

Results

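The genes described here build and load MHC class I molecules: the heavy chains H2-K1 and H2-D1, the light chain B2m, the peptide transporter Tap1 and Tap2, the loading factor Tapbp, the immunoproteasome subunits Psmb8, Psmb9 and Psmb10, and the transactivator Nlrc5. They were chosen by symbol as a pathway, and 10 of 10 were among the 9996 genes of the deposited table of normalised read counts. RNA had been measured in macrophages and neutrophils sorted by flow cytometry from mammary tumours of K14cre;Cdh1F/F;Trp53F/F mice, in 27 libraries. Each cell type came from mice given cisplatin with anti-CSF-1R (combination), cisplatin with control antibody (cisplatin), anti-CSF-1R alone, or control antibody alone (control). The 12 macrophage libraries were 2 combination, 4 cisplatin, 2 anti-CSF-1R and 4 control, and the 15 neutrophil libraries were 4 combination, 3 cisplatin, 4 anti-CSF-1R and 4 control. CSF-1R is the receptor through which macrophages receive a survival signal, so the macrophages of the anti-CSF-1R and combination groups are those still present after its blockade. All mice carried Cre driven by the keratin 14 promoter with floxed Cdh1 and Trp53, which deletes both genes in keratin 14-expressing epithelium, and the sorted cells were host immune cells of those tumours. Mice given cisplatin were killed 1 day after injection 2 and the others at a tumour area of 100 mm2, so in comparisons of combination with control, combination with anti-CSF-1R, and cisplatin with control the drug and the endpoint cannot be told apart. The same holds for the interaction, the effect of anti-CSF-1R with cisplatin minus its effect without, because its parts differ in endpoint. For the mice, ages and strain background were not given in the sources used here.

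MHC class I molecules display peptides from inside the cell to CD8 T cells. A heavy chain pairs with beta-2-microglobulin, encoded by B2m, in the endoplasmic reticulum, where the TAP transporter brings in cytosolic peptides and tapasin, encoded by Tapbp, bridges it to the empty heavy chain. The peptides are cut by the proteasome, whose constitutive catalytic subunits Psmb6, Psmb7 and Psmb5 are replaced in the immunoproteasome by Psmb9, Psmb10 and Psmb8. Most of these genes are induced by interferon-gamma, and NLRC5 is recruited to class I promoters, where it acts with factors bound at a conserved set of elements that includes X2 and Y boxes.

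Of the genes, 7 lie on chromosome 17 in mm10 (GRCm38), in or beside the MHC: Tapbp at chr17:33915899-33929292, H2-K1 at chr17:33996017-34000347, Psmb9 at chr17:34181987-34187764, Tap1 at chr17:34187553-34197225, Psmb8 at chr17:34197721-34201454, Tap2 at chr17:34203527-34216321 and H2-D1 at chr17:35262730-35267499. B2m lies at chr2:122147686-122153083, and Nlrc5 and Psmb10 lie at chr8:94434356-94527272 and chr8:105935735-105938444. Tap1 and Psmb9 are transcribed from opposite strands and their annotated gene bodies share 212 bases, so reads there cannot be assigned to either gene without strand, and the strand setting of the counting was not given in the sources used here. H2-K1, H2-D1 and the H2-Q genes are near-identical over long stretches and differ between mouse strains. The treatment of reads that match several of them was not given in the sources used here, so the split of reads among them is uncertain.

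Promoter windows (250 bases before to 50 after the annotated start, RefSeq, GRCm38.p6) were found for 8 of the 10 genes, all except Tap2 and Nlrc5. The windows of the 3 genes that encode the class I molecule itself are shown, because they share the motifs described next, with that of Tap1 for comparison, the member called in a treatment comparison. H2-K1 is at chr17:34000298-34000597 on the minus strand, H2-D1 at chr17:35262844-35263143 on the plus strand, B2m at chr2:122147437-122147736 on the plus strand and Tap1 at chr17:34187306-34187605 on the plus strand. In the first 3 sequences capitals mark, from left to right, GGGGA followed after 1 base by TCCCC where present, the interferon-response core TTTCNNTT on either strand, and TGACG followed after 20 bases by ATTGG. In Tap1 they mark CCAAT, which is ATTGG on the other strand, and TGACG.
H2-K1: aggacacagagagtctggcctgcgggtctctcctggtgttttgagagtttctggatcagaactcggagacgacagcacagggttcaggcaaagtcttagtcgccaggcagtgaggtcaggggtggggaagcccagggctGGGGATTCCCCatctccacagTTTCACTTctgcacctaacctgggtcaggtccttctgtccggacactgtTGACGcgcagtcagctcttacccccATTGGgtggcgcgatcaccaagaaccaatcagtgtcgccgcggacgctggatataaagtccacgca
H2-D1: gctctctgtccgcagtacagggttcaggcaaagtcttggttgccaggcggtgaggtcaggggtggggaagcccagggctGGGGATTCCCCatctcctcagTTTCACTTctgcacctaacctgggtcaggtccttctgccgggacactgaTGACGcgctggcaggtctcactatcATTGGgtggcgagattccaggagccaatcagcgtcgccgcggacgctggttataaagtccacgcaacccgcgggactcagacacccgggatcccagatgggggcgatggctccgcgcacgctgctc
B2m: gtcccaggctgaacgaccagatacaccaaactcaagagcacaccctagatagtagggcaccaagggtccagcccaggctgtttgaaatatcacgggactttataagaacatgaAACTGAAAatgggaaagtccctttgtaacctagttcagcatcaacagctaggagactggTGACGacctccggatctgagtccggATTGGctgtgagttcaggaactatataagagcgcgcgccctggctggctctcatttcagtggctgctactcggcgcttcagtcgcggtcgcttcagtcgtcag
Tap1: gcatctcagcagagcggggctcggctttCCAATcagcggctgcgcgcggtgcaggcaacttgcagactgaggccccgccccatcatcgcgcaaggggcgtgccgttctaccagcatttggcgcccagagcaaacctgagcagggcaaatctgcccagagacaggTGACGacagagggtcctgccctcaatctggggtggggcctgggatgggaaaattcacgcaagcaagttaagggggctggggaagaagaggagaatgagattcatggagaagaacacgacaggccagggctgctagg

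Each motif was searched on both strands of 27025 windows of the same length. The arrangement of GGGGA, 1 base and TCCCC, a form of the NF-kB element of the class I enhancer, was in 12 windows (0.0444%), which included H2-K1 and H2-D1 and none of the 6 other genes with a window. TTTCNNTT was in 24.2% of windows and in H2-K1, H2-D1 and B2m. TGACG, the core of the X2 box, was in 21.0% of windows and in 5 of the 8, and CCAAT, the core of the Y box, was in 37.9% of windows and in 6 of the 8. The arrangement of TGACG, 20 bases and ATTGG, which contains the previous pair of motifs and whose spacing was noticed in the 3 sequences themselves, was in 26 windows (0.0962%), among them H2-K1, H2-D1 and B2m. The windows of Tap1 and Psmb9 share 275 bases on opposite strands, so their matches are largely the same letters. These matches describe letters in a window and are not measured sites.

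The sorted cells carried the markers of their labels. In control tumours 12 of 12 macrophage markers were higher in macrophages than in neutrophils, and 11 of 11 neutrophil markers were lower. The libraries held 1296417 to 7484623 reads in macrophages and 997925 to 3276850 reads in neutrophils, as decoded from the table. The unit throughout is the authors' normalised read count, and the test is limma on log2(count + 1) with Benjamini-Hochberg adjustment over all genes, two-sided, at a threshold of 0.05. Fold changes are on that scale, which understates the change of low genes. The labels do not state that the libraries of a group come from different animals; p-values therefore describe the spread among libraries alone, which may be technical. Some values below 1000 had lost their decimal point, and 12 of the 270 values of these genes could not be placed and were left out. H2-K1, H2-D1 and B2m had no uncertain value. Decoded reads behind a value numbered 1469 or more for these 3 genes and as few as 5 for Tap2, so Tap2 is the least precise. Neutrophil combination replicate 2 and cisplatin replicate 2 stood apart from the other neutrophil libraries, with 546 and 436 genes at 1000 or above, and results that change without them are given. In sorted bulk cells, fewer cells of a type and less RNA per cell cannot be told apart.

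**Figure D1:**
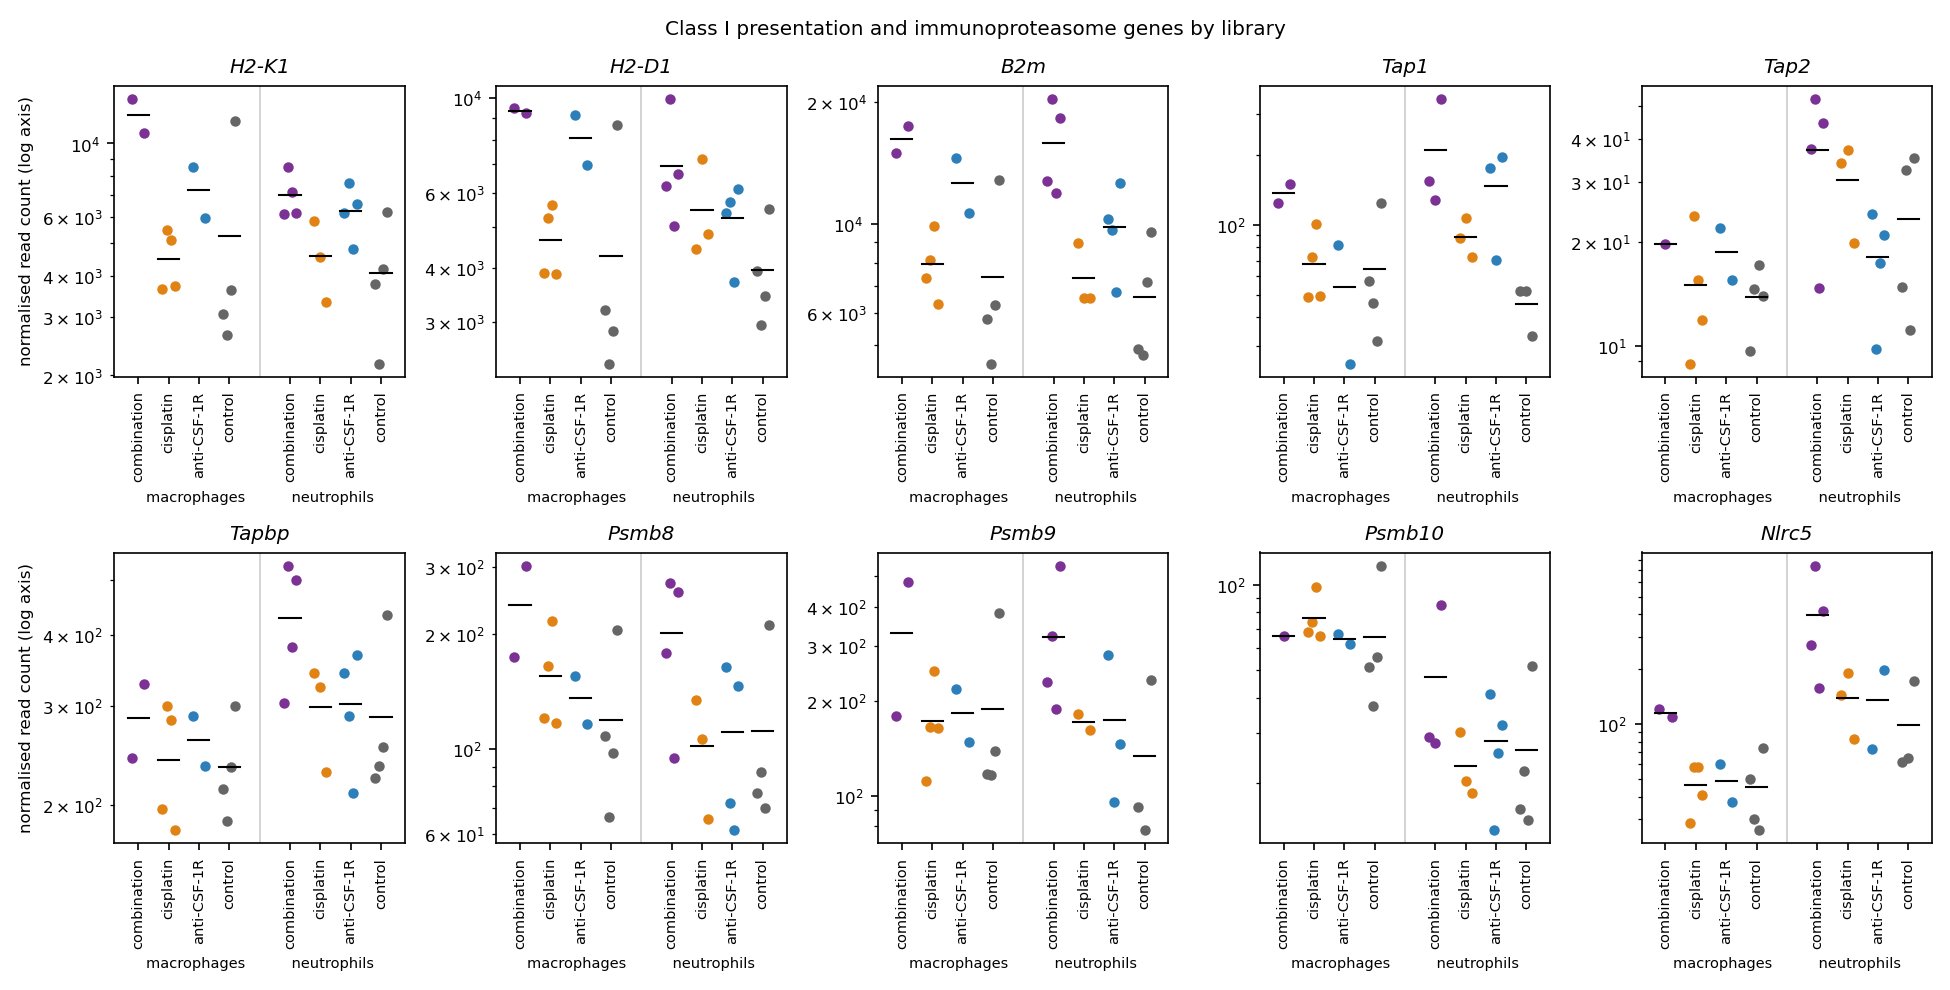
Normalised read count of each gene (log axis) in each library, by cell type and treatment; points are libraries and the black line is the group mean. In macrophages the combination libraries sit at the top for H2-D1, B2m, Tap1 and Nlrc5, and for H2-K1 control replicate 4 lies between them. The control group is split by replicate 4.

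The genes of the class I molecule were expressed at levels far above the rest. Levels between genes are compared as normalised reads per kilobase of annotated exon. In control macrophages B2m stood at 8556 ± 4335 per kilobase (SD, n = 4), H2-K1 at 1791 ± 1471, H2-D1 at 1658 ± 1139 and Tapbp at 64.5 ± 13.3. Below these came Psmb9, Psmb10, Psmb8, Tap1, Nlrc5 and Tap2, the last at 3.66 ± 0.83 per kilobase. The ranges of the 4 libraries were separate between B2m and H2-K1 and between H2-D1 and Tapbp, while every other pair of neighbours in this order overlapped. In control neutrophils the same 2 gaps were present, with B2m at 7657 ± 2643, H2-D1 at 1535 ± 431, H2-K1 at 1389 ± 566 and Tapbp at 79.1 ± 27.5 per kilobase (n = 4 each). The lowest was again Tap2, at 6.19 ± 3.23 per kilobase. B2m was the highest gene, with H2-K1 and H2-D1 next and a gap before the fourth gene, in all 8 groups.

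The study's design sets anti-CSF-1R combined with chemotherapy against its parts. Relative to macrophages given cisplatin alone, 9 of the 10 genes had higher means in the combination and 5 of them (H2-K1, H2-D1, B2m, Tap1 and Nlrc5) were higher in every combination library than in any cisplatin library. That separation was seen for 17.5% of all genes. None of the 10 passed the test, against 3.71% of all genes, and 4 had an unadjusted p below 0.05, against 20% of all genes. The median log2 change of the 10 was 0.92, against -0.01 over all genes tested.

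H2-K1, a classical heavy chain, had 13593 and 10757 normalised reads in combination macrophages, against 3647, 5482, 5104 and 3714 in cisplatin macrophages. The lower combination value was above every cisplatin value, and the log2 fold change was 1.45 (SE 0.47, adjusted p = 0.102 by limma). H2-D1, the other classical heavy chain measured, had 9468 and 9230 in the combination, against 3905, 5246, 5610 and 3878 under cisplatin, again without overlap. Its log2 fold change was 1.03 (SE 0.41, adjusted p = 0.177 by limma). B2m had 14997 and 17484 in the combination, against 7344, 8148, 9885 and 6313 under cisplatin, and its log2 fold change was 1.05 (SE 0.38, adjusted p = 0.133 by limma). All 3 genes of the class I molecule thus had higher group means in the combination, and none passed the threshold.

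Among the loading genes, Tap1, which encodes a subunit of the transporter, had 124 and 150 normalised reads in the combination and 48.7, 72.6, 101 and 49.1 under cisplatin. The ranges did not overlap, and the log2 fold change was 1.06 (SE 0.50, adjusted p = 0.254 by limma). Tap2, the partner subunit, was low throughout, with 19.8 in combination replicate 1 and 8.86 to 23.8 under cisplatin. Combination replicate 2 was left out of its fit because its point could lie anywhere between 2.84 and 284, so the log2 difference of 0.46 (SE 0.52) sets 1 library against 4. Tapbp had 243 and 328 in the combination and 197, 300, 283 and 181 under cisplatin, which overlapped.

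The immunoproteasome subunits overlapped between these groups. Psmb8 had 175 and 303 normalised reads in the combination and 121, 166, 217 and 117 under cisplatin, and Psmb9 had 179 and 479 against 112, 166, 249 and 165. Both combination values of Psmb9 lay above the cisplatin median but replicate 1 lay inside the cisplatin range. Psmb10 had 65.9 in combination replicate 1 and 67.9, 73.8, 97.9 and 65.9 under cisplatin, a log2 difference of -0.19 (SE 0.47). Its combination replicate 2, at 12.8 or 128, was left out, so this is also 1 library against 4, and with the more probable place the difference turned to 0.28. Nlrc5, the class I transactivator, had the smallest p of the 10 in this comparison, with 121 and 109 in the combination and 28.8, 57.9, 58.3 and 41.0 under cisplatin. The groups were apart, at a log2 fold change of 1.34 (SE 0.40, adjusted p = 0.0741 by limma).

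Markers of other cells differed between the same groups. Summed over the 11 neutrophil markers in the table, combination macrophages had 1357 and 1508 normalised reads, against 196 to 392 under cisplatin, and 4 of 7 tested (S100a8, S100a9, Retnlg and Mmp8) rose. The monocyte marker Plac8 rose (1 of 4 tested), the eosinophil genes Ear1 and Ear2 rose (2 of 3 tested), and 4 of 12 macrophage markers (Cx3cr1, C1qc, Csf1r and C1qb) fell. Of the monocyte markers that did not pass, Ly6c2 and Chil3 had higher means (log2 1.89 and 2.06) and Ccr2 a lower mean (-0.94). The dendritic cell markers summed to 179 and 318 in the combination and to 18.2 to 78.2 under cisplatin, with 0 of 4 tested past the threshold. Over all macrophage libraries Itgax reached 784 and no other gene of this list passed 42.4. The highest sums therefore rest mainly on Itgax and not on the list as a whole. The same neutrophil markers summed to 22092 to 101738 in the neutrophil libraries. Their part in the results of these genes was not tested.

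Against control macrophages, all 10 genes had a higher mean in the combination, and none passed the test, against 3.16% of all genes. The median log2 change was 1.16, against -0.004 over all genes, and Psmb10 turned lower (-0.07) without control replicate 2. Tap2 and Psmb10 again rest on combination replicate 1, since replicate 2 could not be placed. H2-D1, B2m, Tap1, Tap2 and Nlrc5 were higher in every combination library than in any control library in which they could be placed, a separation seen for 15% of all genes. An unadjusted p below 0.05 was reached by 6 of the 10, against 17.8% of all genes. The control group was itself uneven, because replicate 4 held the highest value of its group for 9 of the 10 genes.

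The control values of H2-K1 were 3068, 2650, 3609 and 11719 normalised reads, so replicate 4 lay inside the combination range of 10757 to 13593. H2-D1 had 3202, 2392, 2858 and 8655 and B2m had 5813, 4499, 6285 and 12834 in controls, below the combination values given above. Replicate 4 was again the high library in each. With all 4 controls the log2 fold changes were 1.49 for H2-K1 (SE 0.47, adjusted p = 0.104), 1.33 for H2-D1 (SE 0.41, adjusted p = 0.0961) and 1.26 for B2m (SE 0.38, adjusted p = 0.0851), all by limma. Nlrc5 had 49.9, 30.0, 26.2 and 74.2 in controls and came closest to the threshold, at 1.45 (SE 0.40, adjusted p = 0.0640 by limma). Without control replicate 4, 6 of the 10 genes passed, at log2 fold changes of 1.97 for H2-K1, 1.74 for H2-D1, 1.56 for B2m, 1.62 for Tap1, 1.36 for Psmb8 and 1.73 for Nlrc5. Their adjusted p-values by limma were 0.00205, 0.00320, 0.00648, 0.0439, 0.0250 and 0.0126 in that order, and the number of genes called over the whole table was then 622, against 288 with all controls. Whether the high library is a control like the others was not tested.

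Control replicate 4 was also the library with the highest sum of the 12 macrophage markers in its group, 30222 against 16938 in the lowest control. Its neutrophil markers summed to 411, within the control range of 255 to 1567, and its dendritic cell markers to 730, within a control range of 20.4 to 815. The T and NK cell list was represented by 2 genes, which summed to 66.8 and 74.4 in the combination and 151 to 239 in controls. In macrophages this sum was almost wholly Cd4, since Cd3d was listed at 1 in 10 of 12 libraries and reached at most 2.13. The lower sum therefore describes Cd4 alone and cannot be read as a change in T or NK cells. The monocyte markers Plac8 and Chil3 rose in the combination relative to control (2 of 4 tested) and Ear1 and Ear2 also rose (2 of 3 tested). The monocyte markers that did not pass were Ly6c2, with a higher mean (log2 3.38), and Ccr2, which hardly differed (-0.07). The part of these markers in the results was not tested.

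**Figure D2:**
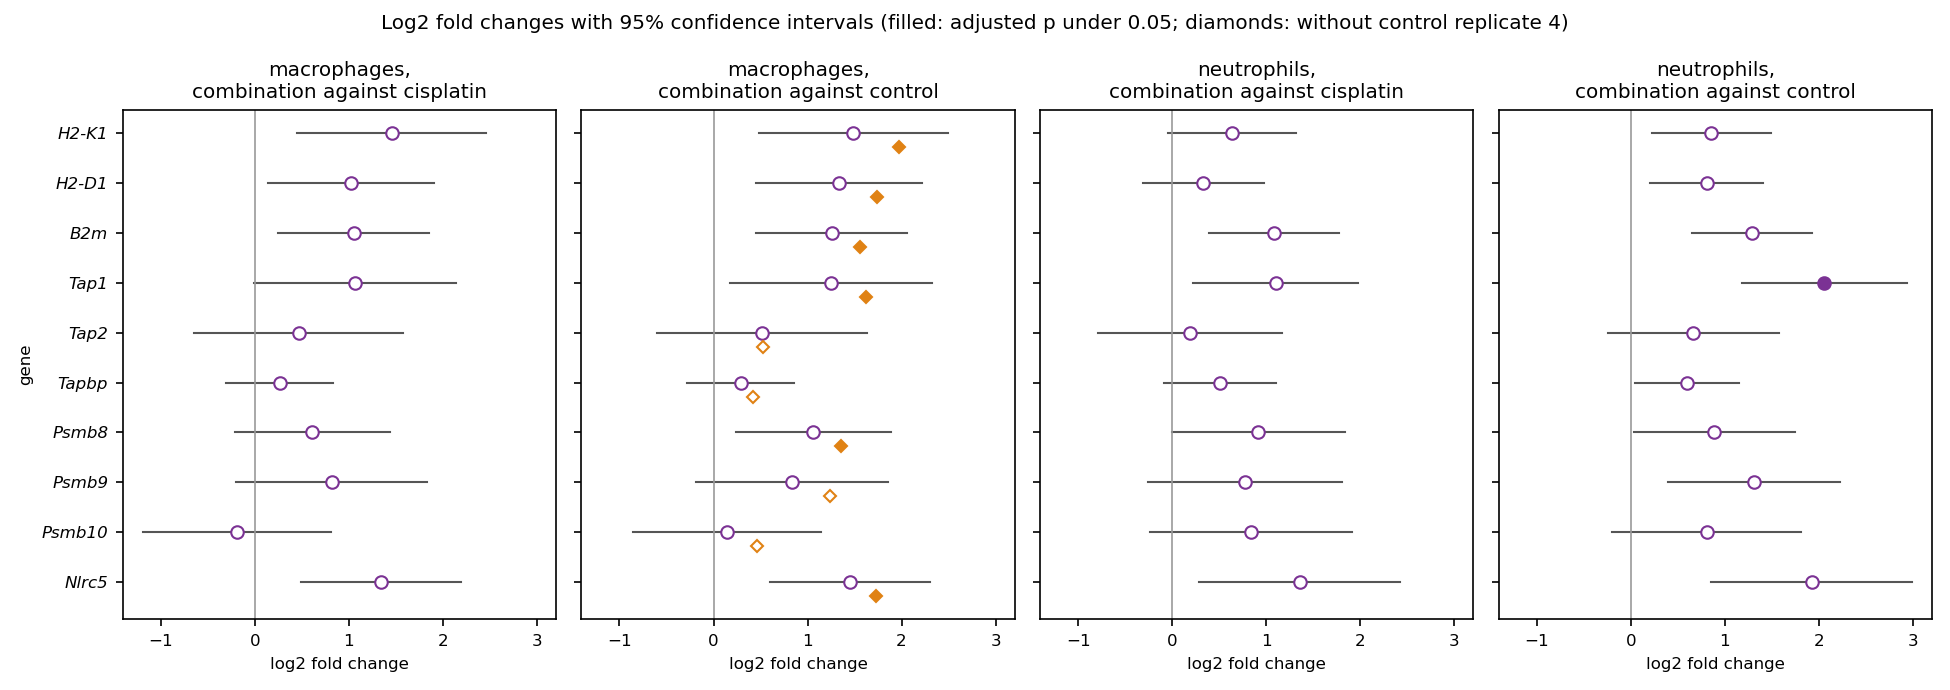
Log2 fold change of each gene with its 95% confidence interval, combination over cisplatin and combination over control, in macrophages and neutrophils; filled points passed the adjusted threshold of 0.05 and orange diamonds repeat the macrophage comparison with control without control replicate 4. Tap1 in neutrophils against control is the filled point among the treatment comparisons shown, at 2.06, and each diamond lies to the right of its point.

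Without cisplatin, those of the 10 genes with the largest log2 differences between anti-CSF-1R and control macrophages were H2-K1, H2-D1 and B2m, and no member passed the test. With anti-CSF-1R alone, H2-K1 had 8509 and 5972 normalised reads, H2-D1 had 9150 and 6979 and B2m had 14513 and 10655. Each of these lay above control replicates 1 to 3 and, apart from the upper H2-D1 and B2m values, below control replicate 4. The log2 fold changes over control were 0.73 for H2-K1 (SE 0.47, adjusted p = 0.404), 1.11 for H2-D1 (SE 0.41, adjusted p = 0.147) and 0.88 for B2m (SE 0.38, adjusted p = 0.202), by limma. None of the 10 genes passed, against 3.2% of all genes, and none was separate from all controls, against 15.5% of all genes that were higher in every library. Without control replicate 4, H2-K1, H2-D1 and B2m passed at 1.21, 1.51 and 1.18 (adjusted p = 0.0245, 0.00905 and 0.0286 by limma), with 549 genes called in the whole table, against 292. In the same comparison, with all controls, the monocyte markers Ly6c2 and Chil3 rose (2 of 4 tested) and the eosinophil genes Ear1 and Ear2 rose (2 of 3 tested), and 1 neutrophil marker of 6 tested, Mmp8, rose. The monocyte markers that did not pass were Plac8, with a higher mean (log2 2.73), and Ccr2, with a lower mean (-0.53). Their part in the results was not tested.

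Tap1 differed between the 2 anti-CSF-1R macrophage libraries, at 82.2 and 25.3 normalised reads, with controls at 57.2, 46.2, 31.7 and 123. Anti-CSF-1R replicate 1 had the higher value for 10 of the 10 genes. The log2 change of Tap1 was -0.31 (SE 0.50) and that of Nlrc5, at 60.1 and 37.5, was 0.20 (SE 0.40). Without control replicate 4 these became 0.06 and 0.47. The median of the 10 was 0.25, against 0.03 over all genes. In this group replicate 2 also held mast cell and basophil markers summing to 9330 normalised reads, against 60.8 in replicate 1 and 10.6 to 62.3 in controls.

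Combination macrophages compared with anti-CSF-1R macrophages, 2 libraries each, had higher means of all 10 genes, of which Tap2 and Psmb10 had 1 placed combination library. H2-K1, H2-D1, B2m, Tap1, Psmb8 and Nlrc5 did not overlap (6 of 10, against 21.1% of all genes). No gene of the 10, and 0% of all genes, passed the test. An unadjusted p below 0.05 was reached by 2 of the 10, against 8.85% of all genes, Tap1 at a log2 fold change of 1.56 (SE 0.58, adjusted p = 0.482) and Nlrc5 at 1.26 (SE 0.46, adjusted p = 0.473), by limma. The effect of anti-CSF-1R with cisplatin minus its effect without cisplatin was 1.37 for Tap1 (SE 0.71, adjusted p = 0.628) and 1.15 for Nlrc5 (SE 0.56, adjusted p = 0.611), and for the heavy chains 0.73 for H2-K1 and -0.08 for H2-D1. Without control replicate 4 these 4 values became 1.002, 0.87, 0.25 and -0.49. None of the 10 interactions passed, against 0.0111% of all genes. Cisplatin alone against control left every gene overlapping, where 3.64% of all genes were higher in every library, with log2 changes between 0.02 for Psmb9 and 0.45 for Psmb8 and 0 of 10 called, against 0.424% of all genes. Without control replicate 4 the 10 differences lay between 0.06 for Tap2 and 0.75 for Psmb8, with 0.52 for H2-K1, 0.72 for H2-D1, 0.51 for B2m and 0.42 for Psmb9, and none passed.

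**Figure D3:**
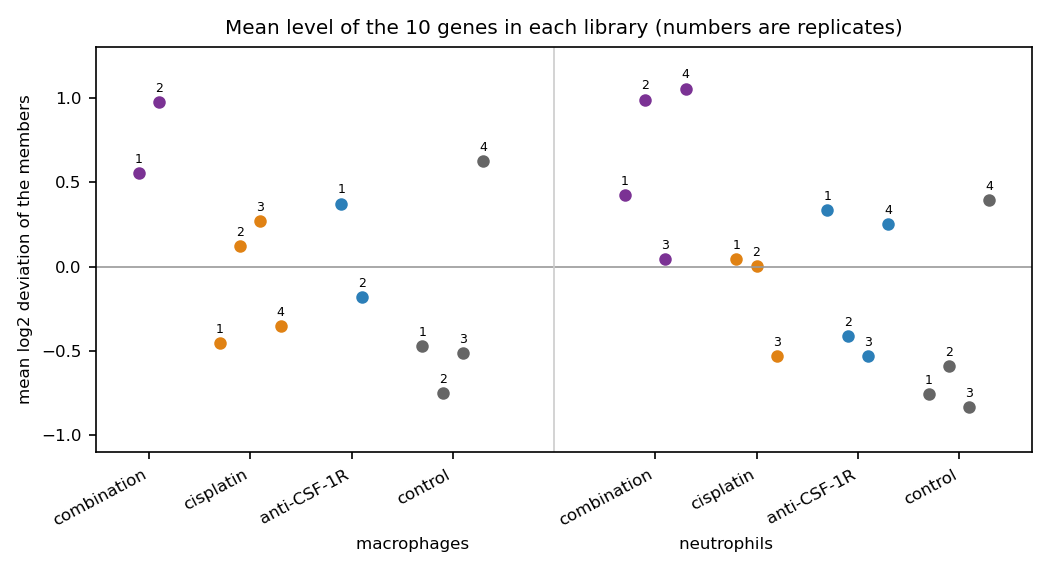
Mean log2 deviation of the 10 genes from each gene's mean over the libraries of its cell type, for each library, with numbers marking replicates. Values that could not be placed are left out of a mean. Combination macrophage replicate 2, at 0.97, thus rests on 8 genes, without Tap2 and Psmb10. Combination macrophages lie between 0.55 and 0.97 and cisplatin macrophages between -0.46 and 0.27; control replicate 4 of each cell type stands above the other controls.

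In neutrophils the combination again gave higher means of all 10 genes, relative both to control and to cisplatin, although Tap2 turned slightly lower against cisplatin without combination replicate 2 (-0.01) or cisplatin replicate 3 (-0.08). Against control, Tap1 rose, and it was 1 of 10 genes to pass the test, against 0.789% of all genes and 0.636% called higher. B2m was higher in every combination library than in any control library, and so was Tap1 among the libraries in which it could be placed (2 of 10, against 6.55% of all genes). An unadjusted p below 0.05 was reached by 8 of the 10, against 15.2% of all genes. The median log2 change was 0.87, against 0.02 over all genes.

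Tap1 had 154, 127 and 346 normalised reads in combination neutrophils 1, 3 and 4, against 51.8, 51.7 and 33.3 in control neutrophils 1, 2 and 3. The lowest combination value was above the highest control value, at a log2 fold change of 2.06 (SE 0.41, adjusted p = 0.0344 by limma), a 4.16-fold difference. Combination replicate 2 (36.8 or 368) and control replicate 4 (14.8 or 148) could not be placed and were left out, and a lower combination or higher control placing would make the groups overlap. The more probable places were 36.8 (probability 0.806) and 14.8 (probability 0.746). At 36.8 combination replicate 2 would lie within the range of the placed controls, so overlap was the more probable state. With places read without knowledge of the groups the log2 change was 1.27 (adjusted p = 0.384), and with the most probable place for every value 1.86 (adjusted p = 0.153). The call was lost in 11 of 16 alternatives, among them the omission of combination replicate 1, 2 or 4 (adjusted p = 0.0585, 0.0825 and 0.0972) and of control replicate 1, 2 or 3 (adjusted p = 0.0842, 0.0972 and 0.1198), all by limma. Without both neutrophil libraries that stood apart the adjusted p was 0.0860. Over the 16 the log2 change stayed between 1.27 and 2.34, with adjusted p between 0.0182 and 0.384.

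B2m had 12776, 20343, 11912 and 18270 normalised reads in combination neutrophils, against 4883, 4726, 7183 and 9550 in controls. The groups were apart and B2m stood at the edge of the threshold, at a log2 fold change of 1.29 (SE 0.31, adjusted p = 0.0507 by limma). H2-K1 had 6135, 8471, 7151 and 6165 in the combination and 3766, 2171, 4174 and 6211 in controls, where control replicate 4 alone reached the combination range. H2-D1 had 6233, 9943, 5013 and 6638 in the combination and 3944, 2942, 3445 and 5508 in controls, again overlapping through replicate 4. Their log2 fold changes were 0.86 for H2-K1 (SE 0.30, adjusted p = 0.181) and 0.81 for H2-D1 (SE 0.29, adjusted p = 0.186), by limma.

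Nlrc5 had 272, 740, 157 and 417 normalised reads in combination neutrophils, against 62.2, 64.8 and 171 in control replicates 1, 3 and 4. Only the lowest combination library fell within the control range, and the log2 fold change was 1.93 (SE 0.50, adjusted p = 0.0776 by limma). Control replicate 2 (37.0 or 370) was left out. Psmb9 had 231, 321, 189 and 540 in the combination and 91.8, 77.7 and 233 in control replicates 1, 3 and 4, with replicate 2 (42.9 or 429) left out, and its log2 fold change was 1.31 (SE 0.43, adjusted p = 0.162 by limma). Psmb8 had 179, 273, 94.7 and 259 in the combination, against 77.0, 87.2, 70.3 and 212 in controls. Psmb10, with 29.0, 27.8 and 85.1 against 16.3, 22.2, 14.8 and 51.8, also overlapped, and its combination replicate 1 (6.24, 62.4 or 624) was left out.

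Without control replicate 4, which held the highest neutrophil control value for 7 of the 7 genes that could be compared, Tap1, B2m, Psmb9 and Nlrc5 passed, the last 3 at log2 fold changes of 1.49, 1.79 and 2.40 (adjusted p = 0.0238, 0.0474 and 0.0310 by limma). Without combination replicate 3, Tap1, B2m and Nlrc5 passed, the last pair at 1.41 and 2.30 (adjusted p = 0.0462 and 0.0377). Among all genes, 154 were called without control replicate 4 and 104 without combination replicate 3, against 72 with every library. With the omission of any other library of the comparison the count among the 10 genes was 0. The remaining genes, Tapbp with 303, 531, 381 and 501 against 224, 235, 253 and 435, and Tap2 with 37.4, 52.3, 14.7 and 44.6 against 14.8, 32.5, 11.1 and 35.2, overlapped. The 4 monocyte markers summed to 668 to 2198 normalised reads in combination neutrophils and 264 to 757 in controls, ranges that overlap, with 0 of 4 tested past the threshold. Their part in these results was not tested.

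Relative to neutrophils given cisplatin alone, H2-K1, B2m, Tap1 and Psmb9 were higher in every combination library that could be placed than in any cisplatin library (4 of 10, against 6.26% of all genes). Psmb9 in cisplatin replicate 3 (52.8 or 528) and Tap1 in combination replicate 2 were left out, and at 528 or 36.8 the groups would overlap. The more probable places were 52.8 for Psmb9 (probability 0.937) and 36.8 for Tap1 (probability 0.806), so for Tap1 overlap was the more probable state. No gene of the 10 passed, against 0.0769% of all genes, and 3 had an unadjusted p below 0.05, against 8.71%. B2m had 8946, 6546 and 6533 normalised reads under cisplatin, below the 11912 of the lowest combination library, and its log2 fold change was 1.09 (SE 0.33, adjusted p = 0.271 by limma). Tap1 had 87.2, 107 and 72.7 under cisplatin, and its log2 fold change was 1.10 (SE 0.41, adjusted p = 0.438 by limma). H2-K1 had 5837, 4539 and 3330 under cisplatin, just below the 6135 of the lowest combination library, at 0.64 (SE 0.33). Nlrc5, at 144, 191 and 82.7 under cisplatin, overlapped the combination but differed most, by 1.36 (SE 0.50, adjusted p = 0.438 by limma). The median of the 10 was 0.81, against 0.01 over all genes.

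Anti-CSF-1R alone gave neutrophils a higher Tap1 value than control in every library that could be placed, with 175, 70.4 and 196 normalised reads against the 33.3 to 51.8 of controls. Replicate 3 of anti-CSF-1R (33.6 or 336) was left out in addition to control replicate 4. At 33.6, the more probable place (probability 0.886), replicate 3 would lie within the control range and the groups would overlap. They would also overlap with control replicate 4 at 148, its less probable place. The log2 fold change was 1.57 (SE 0.41, adjusted p = 0.214 by limma). Among placed libraries Tap1 was the single member so separated, against 3.42% of all genes. Under cisplatin alone Tap1 was likewise above the placed controls, at 0.96 (SE 0.41, adjusted p = 0.605 by limma), where 6.26% of all genes were separated. None of the 10 genes passed in either comparison, against 0.0219% of all genes for anti-CSF-1R and 0.0549% for cisplatin. These 3 comparisons share their control libraries, and each control value of Tap1 enters all of them.

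H2-K1 had 6159, 7587, 4817 and 6551 normalised reads in anti-CSF-1R neutrophils and H2-D1 had 5385, 5701, 3723 and 6146, with log2 changes over control of 0.70 (SE 0.30, adjusted p = 0.513) and 0.42 (SE 0.29, adjusted p = 0.725), by limma. B2m had 10251, 9634, 6762 and 12607 and differed from control by 0.60 (SE 0.31, adjusted p = 0.600 by limma). Psmb8, Psmb9 and Psmb10 overlapped control, Psmb9 without anti-CSF-1R replicate 3 (51.0 or 510), and of Nlrc5 only replicates 3 and 4 could be placed, at 73.0 and 198. Combination against anti-CSF-1R neutrophils gave higher means for 10 of 10 genes (Tap1 turned to -0.09 with places read without the groups) and no separated gene, against 4.28% of all genes, with 0 called, against 0.011%. The largest log2 difference was 1.49 for Nlrc5 (SE 0.57, adjusted p = 0.407 by limma). In neutrophils none of the interactions passed (0.011% of all genes), and that of Tap1 was -0.47 (SE 0.59).

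Between cell types the class I molecule itself showed no difference past the threshold. In control tumours H2-K1, H2-D1 and B2m differed between macrophages and neutrophils by log2 values of 0.17 (95% interval -0.56 to 0.91), -0.05 (-0.71 to 0.61) and 0.10 (-0.55 to 0.75). Without macrophage control replicate 4 these became -0.31, -0.46 and -0.20. For the same genes the intervals also held 0 in the other 3 treatments, but under upper-quartile scaling H2-K1 in the combination passed, at 1.18 (adjusted p = 0.0243 by limma). The test called 1 of the 10 genes in combination tumours, 2 under cisplatin, 2 under anti-CSF-1R and 1 in control tumours, against 46.4%, 56.5%, 42.4% and 51.1% of all genes.

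Psmb10, an immunoproteasome subunit, was higher in macrophages. It had 51.3, 37.3, 55.8 and 117 normalised reads in control macrophages, against 16.3, 22.2, 14.8 and 51.8 in control neutrophils, overlapping through neutrophil replicate 4. The log2 difference was 1.33 (SE 0.40, adjusted p = 0.00839 by limma). Under cisplatin the values were 67.9, 73.8, 97.9 and 65.9 in macrophages against 30.3, 20.3 and 18.5 in neutrophils, without overlap (31% of all genes were higher in every macrophage library), and the difference was 1.70 (SE 0.44, adjusted p = 0.00206 by limma). Both calls held in every alternative tried, 16 for control and 15 for cisplatin. Under anti-CSF-1R Psmb10 was also higher, at 1.27 (SE 0.49, adjusted p = 0.0410 by limma), a call lost in 5 of 14 alternatives, among them the omission of either macrophage library (adjusted p = 0.156 and 0.123) or of neutrophil replicate 2 or 3 (0.126 and 0.0601). In the combination it rested on 1 placed macrophage library and did not pass.

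Nlrc5 was lower in macrophages. Under cisplatin it had 28.8, 57.9, 58.3 and 41.0 normalised reads in macrophages against 144, 191 and 82.7 in neutrophils, and in the combination 121 and 109 against 272, 740, 157 and 417, in both cases without overlap. In these treatments 27.8% and 30.4% of all genes were lower in every macrophage library. The log2 differences were -1.54 (SE 0.47, adjusted p = 0.00811) and -1.55 (SE 0.53, adjusted p = 0.0209), by limma. The cisplatin call was lost in 1 of 15 alternatives, without neutrophil cisplatin replicate 2 (-1.27, adjusted p = 0.0545). The combination call was lost in 5 of 14, among them without neutrophil combination replicate 2 (-1.18, adjusted p = 0.0743) and without either macrophage library (-1.62, adjusted p = 0.0824, and -1.48, adjusted p = 0.110). In control and anti-CSF-1R tumours the differences were -1.08 (adjusted p = 0.0593) and -1.32 (adjusted p = 0.0869) by limma, the second with 2 neutrophil libraries left out. The control difference passed without macrophage control replicate 4 (-1.35, adjusted p = 0.0264), without neutrophil control replicate 1 (-1.33, adjusted p = 0.0434), with places read without the groups (-2.02, adjusted p = 0.0163) and without the 2 neutrophil libraries that stood apart (-1.08, adjusted p = 0.0408). The anti-CSF-1R difference passed without neutrophil replicate 3 (-2.04, adjusted p = 0.0279), with the most probable place for every value (-1.78, adjusted p = 0.0157) and with limma-voom (-1.79, adjusted p = 0.0208). Tap2, not called in macrophages against neutrophils under cisplatin, passed at lower values in macrophages in 5 of 15 alternatives (-0.70 to -1.28).

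Tap1 fell in anti-CSF-1R macrophages relative to anti-CSF-1R neutrophils, by 1.53 on the log2 scale (SE 0.53, adjusted p = 0.0231 by limma). The values were 82.2 and 25.3 normalised reads in macrophages against 175, 70.4 and 196 in neutrophils, which overlap, and the call was lost in 7 of 14 alternatives. Without macrophage replicate 2 the difference was -0.70 (adjusted p = 0.409), without neutrophil replicate 1 it was -1.34 (adjusted p = 0.0702), and without neutrophil replicate 4 it was -1.26 (adjusted p = 0.0890). Whether treatments acted differently in the 2 cell types was tested directly. No member passed for combination over cisplatin (0.0817% of all genes) or for anti-CSF-1R over control (0.153%), where Tap1 came closest at -1.87 (SE 0.69, adjusted p = 0.377 by limma).

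**Figure D4:**
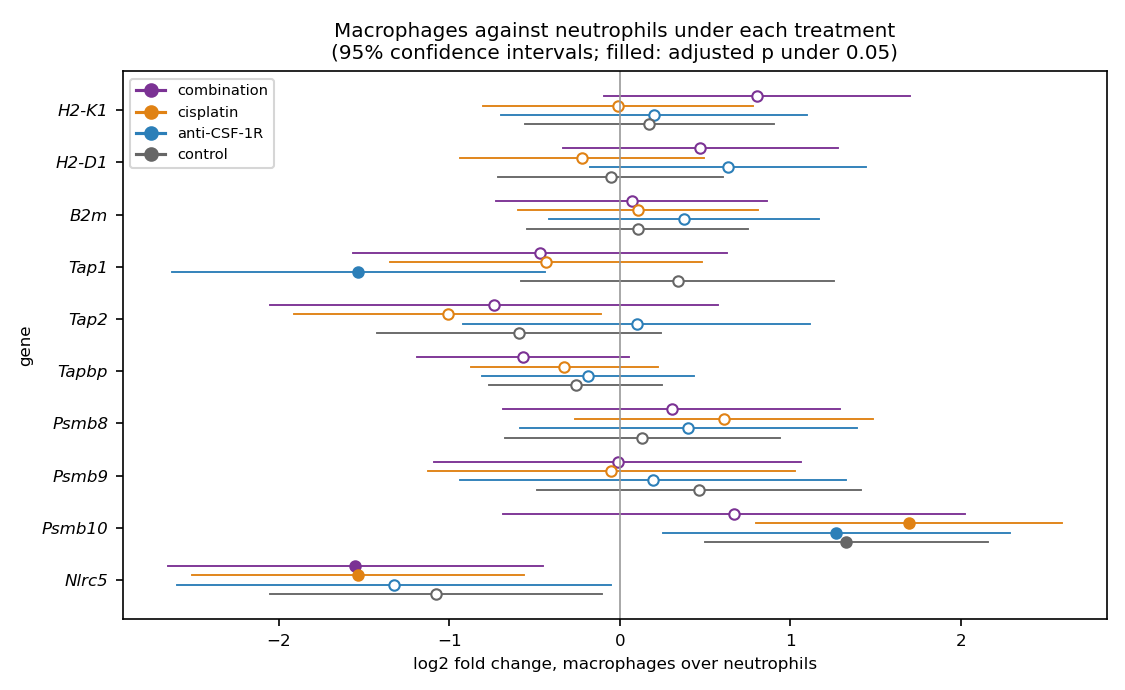
Log2 difference of each gene, macrophages over neutrophils, in each of the 4 treatments, with 95% confidence intervals; filled points passed the adjusted threshold. Psmb10 lies above 0 and Nlrc5 below 0 in all 4 treatments, while H2-K1, H2-D1 and B2m have intervals that include 0.

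The immunoproteasome subunits were also set against the constitutive subunits they replace, each per kilobase of exon. The ratio of Psmb9 to Psmb6 was 2.84, 7.08, 2.28 and 5.59 in combination neutrophils, against 0.755, 0.716 and 1.53 in control replicates 1, 3 and 4. Every combination ratio was above every control ratio that could be placed. Control replicate 2 has no ratio because its Psmb9 value (42.9 or 429) was left out, and at 429 the groups would overlap. Cisplatin neutrophils (1.64 and 3.07, with replicate 3 not placed) overlapped the combination, and anti-CSF-1R neutrophils (3.20, 1.25 and 1.35) overlapped both. In macrophages the same ratio stayed at 0.449 and 0.988 in the combination, 0.568 to 1.001 under cisplatin, 0.403 and 0.480 under anti-CSF-1R and 0.571 to 0.809 in controls. Psmb6 itself was higher in macrophages than in neutrophils, by log2 values of 0.96 in control (adjusted p = 0.00594), 2.15 under anti-CSF-1R (adjusted p = 2.29e-05), 1.47 under cisplatin (adjusted p = 0.000231) and 2.54 in the combination (adjusted p = 1.94e-06), by limma.

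The ratio of Psmb8 to Psmb5 averaged 1.83 ± 0.90 in combination macrophages (SD, n = 2), against 0.944 ± 0.338 under cisplatin (n = 4), 0.708 ± 0.133 under anti-CSF-1R (n = 2) and 0.614 ± 0.299 in controls (n = 4). In neutrophils it was 2.02 ± 1.10 in the combination (n = 4), 1.02 ± 0.54 under cisplatin (n = 3), 0.983 ± 0.514 under anti-CSF-1R (n = 4) and 0.520 ± 0.206 in controls (n = 4). Combination macrophages, at 1.19 and 2.46, were above every control (0.295 to 0.929) and overlapped cisplatin, and in neutrophils the combination range of 0.571 to 3.12 overlapped every group. Psmb10 over Psmb7 was 1.03 to 2.42 in combination neutrophils (n = 3), above the 0.555 to 0.892 of cisplatin neutrophils and overlapping the 0.334 to 1.65 of controls, while in macrophages its single combination value lay within the range of each other group. Combination neutrophil replicate 1 has no ratio because its Psmb10 value (6.24, 62.4 or 624) was left out, and at 6.24 the combination would overlap cisplatin. These ratios are descriptions of unequal levels and were not tested.

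**Figure D5:**
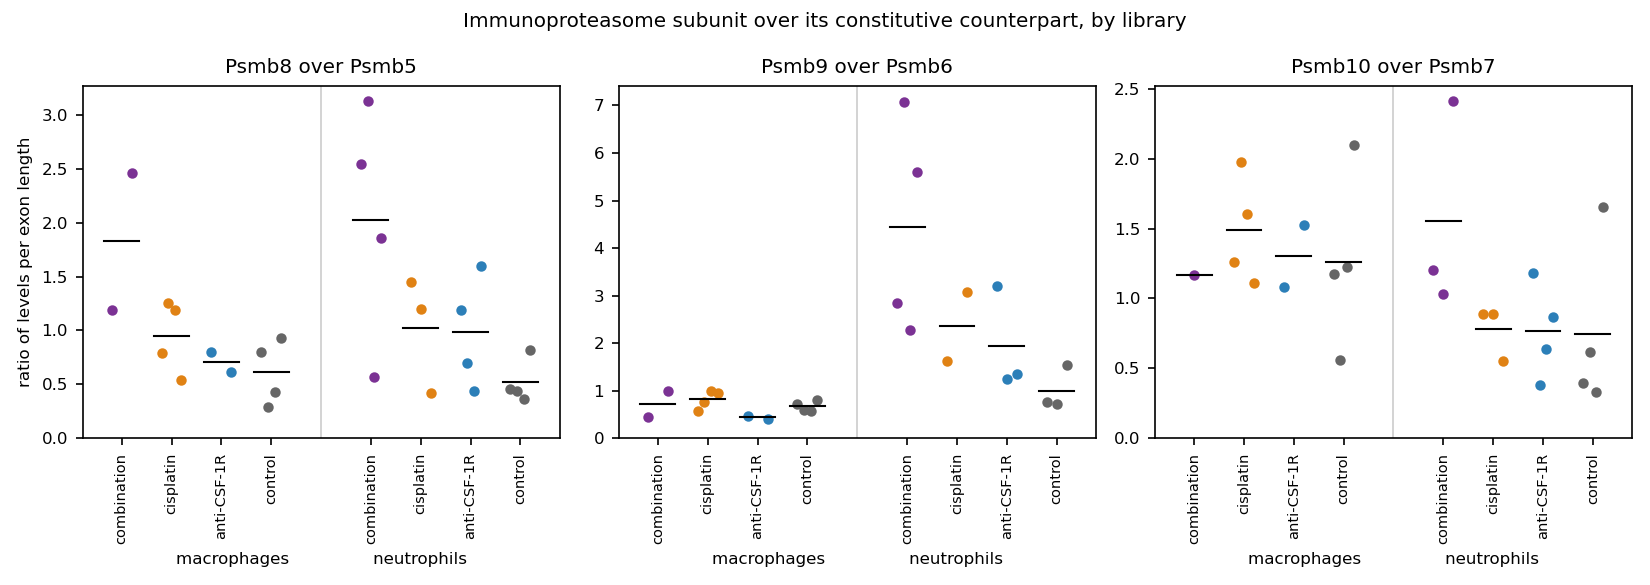
Ratio of each immunoproteasome subunit to the constitutive subunit it replaces, per kilobase of annotated exon, in each library by treatment and cell type. Psmb9 over Psmb6 reaches 2.28 to 7.08 in combination neutrophils and stays between 0.403 and 1.001 in every macrophage library.

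Other genes of the pathway were followed in 4 lists. Of 13 other class I heavy chains and class I-like genes in the table, 12 of 12 tested had a higher mean in combination than in cisplatin macrophages (median 1.32, 0 called), and 11 of 11 in combination than in cisplatin neutrophils (median 1.13, 0 called). In combination neutrophils relative to control, 3 of 11 rose, the non-classical heavy chains H2-Q7, H2-Q4 and H2-Q5, at log2 fold changes of 1.97, 1.33 and 1.39 (adjusted p = 0.0242, 0.0330 and 0.0432 by limma). Over all genes 0.636% were called higher in that comparison. H2-Q7 had 150, 304, 81.7 and 181 normalised reads in the combination, against 50.4, 26.6, 33.3 and 59.2 in controls, with no overlap. H2-Q4 did not overlap either, with a lowest combination value of 163 and a highest control value of 134. H2-Q5 overlapped, at 96.4 in combination replicate 3 and 97.2 in control replicate 4. Such separation was seen for 6.55% of all genes. The call was lost in 9, 9 and 10 of 16 alternatives for H2-Q7, H2-Q4 and H2-Q5, which included upper-quartile scaling and the omission of control replicate 1, 2 or 3 or of combination replicate 1, 2 or 4; over the alternatives adjusted p ranged up to 0.0859, 0.128 and 0.163. In macrophages H2-M2, another non-classical gene, was called lower in the combination than in control, a call lost in 8 of 13 alternatives. Without control replicate 4 its log2 difference from control was -3.355 in the combination (adjusted p = 0.0270 by limma). Under cisplatin alone it was also lower than in those controls, by a log2 difference of -4.994 (adjusted p = 0.0154 by limma).

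The list of loading and trimming factors, such as the chaperones Calr and Canx and the peptidase Erap1, had 12 genes in the table. In combination over cisplatin 5 of 12 had a higher mean in macrophages and 3 of 12 in neutrophils, with medians of -0.12 and -0.13 and 0 called in each. The list of constitutive proteasome subunits, activators and chaperones, with 10 genes, likewise had 0 called in combination over cisplatin and in combination over control in both cell types. In combination over control neutrophils its median was -0.36, against 0.87 for the 10 genes described above and 0.02 over all genes. Combination and control values of Psmb5 were 30.8 ± 11.8 and 54.5 ± 10.1 normalised reads (SD, n = 4 each), and those of Psmb6 were 39.2 ± 11.2 and 64.0 ± 9.6.

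Of 18 genes of interferon signalling in the table, Irf1 rose in combination macrophages relative to control, and Irf2 rose in combination neutrophils relative to control, each as 1 gene of its list. Over all genes, 3.16% were called in that macrophage comparison and 0.789% in that neutrophil comparison. Irf1, an interferon-induced activator of class I genes, had 219 and 217 normalised reads in combination macrophages, against 44.9, 28.4, 31.7 and 122 in controls. Its log2 fold change was 2.18 (SE 0.52, adjusted p = 0.0353 by limma). That call was lost in 7 of 13 alternatives, among them the omission of either combination library or of control replicate 1, 2 or 3, over which adjusted p ranged up to 0.241. Irf2, a related factor, had 272, 438, 269 and 307 in combination neutrophils against 107, 93.1, 139 and 160 in controls, at 1.36 (SE 0.27, adjusted p = 0.0268 by limma). It was lost in 9 of 16 alternatives, among them the omission of combination replicate 1, 2 or 4 or of control replicate 1, 2 or 3, with adjusted p up to 0.0989. Irf1 was lower in macrophages than in neutrophils in all 4 treatments. In neutrophils Irf1 had 1145, 1090, 1071 and 1317 normalised reads in the combination, against 280, 228, 302 and 938 in controls. These did not overlap, a separation seen for 6.55% of all genes, but Irf1 did not pass the threshold there.

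The genes whose pattern was most like the mean of the 10 over libraries were found by Pearson correlation, as a description. Over 12 macrophage libraries and 4707 genes these were Oas1a (0.942), Snx5 (0.941), Sertad1 (0.935), Nampt (0.934) and Trafd1 (0.927). Over 15 neutrophil libraries and 4165 genes they were Rnpep (0.920), Samhd1 (0.909), Epsti1 (0.902), Ifitm3 (0.898) and Ly6e (0.895). The libraries share treatment groups, depth and sort purity, which all enter these values. Oas1a, an antiviral synthetase, ranged between 73.8 and 375 normalised reads over the macrophage libraries, and Ifitm3, an antiviral membrane protein, between 491 and 6197 over the neutrophil libraries.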

How the data were processed

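Per the labels' protocols, cDNA libraries were made with the Ovation V2 and Encore Rapid systems for each of 12 macrophage and 15 neutrophil samples. Tools named in the submitters' processing notes, with no role given, were DESeq2, Partek 6.6, TopHat2 2.0.11, CASAVA 1.8 and R 3.3.1, on build mm10. The authors deposited 1 table of 9996 genes whose values are a signal, read counts divided by size factors, and values below 1 are listed as 1. Values with 3 or more decimals had lost the decimal point below 1000. Of 269892 values, 68.5% had several possible places. The place was chosen from the value of 1 read in each library and a negative binomial model of the gene over the groups, and 13453 values (4.98%) with a probability under 0.95 were left out. Values of 1000 or more were whole multiples of 1 read, within 0.05 reads, in 99.2% of cases. Decoding with the groups can favour differences between them, so a decoding without groups was an alternative.

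Genes at 10 or more in at least 2 libraries were tested with limma 3.58.1 in R 4.3.3 (lmFit, eBayes with trend) on log2(value + 1), 1 model per cell type over its 4 groups, and 1 model over all 8 groups where cell types were compared. Intervals are 95% and come from the same fit. In total 18 comparisons were made, without covariates, since the labels give no batch and no pairing. Replicate pairs correlated at 0.924 to 0.975 over 35 pairs, and none was a copy. The named genes are the 10 members and, from the fixed lists of pathway genes and cell type markers, those past the threshold or used as background. The members and lists were chosen with earlier results of these data known. The list of monocyte markers leaves out 1 gene that is not reported here. Scripts were tested on simulated data.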

Additional observations from a re-analysis of the deposited data

Results flagged for a closer look

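Of 42 sets of 4 values, each a gene in a group of 4 libraries, 5 held a library far from the rest, its gap to the nearest other library taking up over 82.9% of the group's range; chance gives about 1 in 20. All were replicate 4 of a control group. The genes share these libraries, so the 42 sets are not independent. The 5 therefore cannot be set against the rate of 1 in 20 as separate cases. In control macrophages replicate 4 was the high library for H2-K1 (11719 normalised reads), H2-D1 (8655) and Psmb9 (381). In control neutrophils replicate 4 was the high library for Tapbp (435) and Psmb8 (212). Replicate numbers follow accession order and pair nothing, so the 2 libraries share a number only. Values without macrophage control replicate 4 are given for the treatment comparisons with control and for macrophages against neutrophils in control tumours.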

How the results depend on the processing

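Counts of the 10 genes past the threshold kept within 1.5 times of the reported count with a pseudocount of 10 and with no filter. In combination against control neutrophils (reported 1) the count was 0 with upper-quartile scaling, with places decoded without the groups and without the 2 neutrophil libraries that stand apart, 2 with the most probable place for every value, and 3 with all 8 groups in the fit. In macrophages against neutrophils it was 1 (reported 2) under anti-CSF-1R with upper-quartile scaling, with places decoded without the groups and with limma-voom on decoded reads, an alternative chosen after seeing the data. In control tumours it was 2 (reported 1) with places decoded without the groups and without the 2 libraries that stand apart, and in combination tumours 0 (reported 1) without those 2 libraries. The cause was not tested. Leaving out each library moved the count between 0 and 4 for combination against control neutrophils, 0 and 6 for combination against control macrophages, 0 and 3 for anti-CSF-1R against control macrophages, and, for macrophages against neutrophils, 0 and 1 in combination, 1 and 3 in cisplatin, 0 and 2 in anti-CSF-1R and 1 and 2 in control tumours. The other 11 results stayed at 0. Upper-quartile scaling moved the median of all genes by -0.18, -0.15 and -0.11 in combination, cisplatin and anti-CSF-1R against control neutrophils, and by 0.35, 0.35, 0.19 and 0.21 in macrophages against neutrophils in combination, cisplatin, anti-CSF-1R and control tumours. Over the 10 genes, 2601 of 2858 alternative values kept their direction and their side of the threshold, 196 changed sign, none of them past the threshold before or after, 32 passed and 29 no longer passed. The planned edgeR test was not run, because the values did not allow a count test. With 2 libraries in some groups, a left-out library leaves 1, which is assumed to vary like the other groups. No paired analysis was possible because the labels carry no replicate numbers; those used here follow accession order and pair nothing.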
